A study of Mus musculus with 2 samples.

Results

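The semaphorins, plexins and neuropilins are the ligands and receptors of one guidance system, and their transcripts were examined in single hippocampal cells of mice. The 31 genes were taken by name: every semaphorin of classes 3 to 7, every plexin and both neuropilins among the 30223 genes of the deposited table, with 20 semaphorins, 9 plexins and 2 neuropilins found. Cells came from mice of strain C57Bl.6/J that were either wild-type controls or homozygous for the Pigv341E knock-in. Pigv encodes a mannosyltransferase that works in the synthesis of the glycosylphosphatidylinositol (GPI) anchor, by which some proteins are held on the outer face of the cell membrane. For each genotype, cells released by cold mechanical dissociation from the left and right hippocampus of 4 mice, 8 hippocampi in all, were pooled into 1 droplet library (10x Genomics), and the pair of libraries shared a sequencing lane. The age and sex of the mice are not given in the sources used here. With 1 library per genotype there is no replicate check, genotype and library cannot be told apart, and no p-value was computed.

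Semaphorins are secreted or membrane-bound proteins that share a sema domain, and they steer axons, dendrites and migrating cells, mostly by repulsion. Most class 3 members are secreted and bind a neuropilin, which joins a plexin that carries the signal into the cell. Most members of classes 4 to 6 span the membrane and bind plexins directly, and Sema7a is held by a GPI anchor and binds Plxnc1 and integrins. In the hippocampus the family is known for the layering of mossy fibre and entorhinal axons, for the pruning of axons and spines, and for the guidance of oligodendrocyte precursors.

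The table held 15930 cells, 7094 from wild-type and 8836 from Pigv341E mice. Its values are whole numbers that had been corrected for depth, with a median total per cell of 8631 in the wild-type and 9608 in the Pigv341E library. The depth of the raw libraries is therefore unknown, and values of 1 may not each stand for a molecule seen. The median share of mitochondrial values was 0.123% and 0.219%, and 28 cell barcodes occurred in both libraries. Pigv itself was at 0.0886 and 0.1004 per 10000 values in the wild-type and Pigv341E libraries, which does not check an edited base, and Abl1 differed widely, at 8.995 and 1.29. Cells were clustered without the 31 genes and named from marker lists. The 13 classes that reached 50 cells in both libraries held 6180 wild-type (87.1%) and 7091 Pigv341E cells (80.3%), while clusters left unnamed held 11.9% and 18.5%. A level is given per 10000 values: the summed values of the gene in a class, out of all values summed in that class. Levels are compared across classes and libraries. They are not compared between genes, except where genes were chosen by level and in a correlation with gene span, because the values are not scaled to gene length.

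Of the 7 class 3 ligands, 5 reached a level of about 1 or more in at least 1 class. Sema3a, Sema3c, Sema3d and Sema3e lie within 5.35 Mb of chromosome 5 (chr5:12383385-17730268, GRCm38, GENCODE M21, plus strand), and each had its highest level in a different class. The bases before the RefSeq start (GRCm38.p6) of 3 of these neighbours are shown because they belong to genes with separate patterns over the classes. Capitals mark GC boxes, GGGCGG or its reverse complement CCGCCC, searched on both strands, and the windows overlap no annotated exon. The window of Sema3c overlaps annotated exons and is not shown.
Sema3d, chr5:12382916-12383165: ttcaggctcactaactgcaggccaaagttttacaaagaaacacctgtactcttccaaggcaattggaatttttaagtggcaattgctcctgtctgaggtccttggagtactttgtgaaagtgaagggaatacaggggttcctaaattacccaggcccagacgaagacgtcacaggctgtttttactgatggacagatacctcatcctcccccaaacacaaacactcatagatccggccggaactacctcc
Sema3a, chr5:13396534-13396783: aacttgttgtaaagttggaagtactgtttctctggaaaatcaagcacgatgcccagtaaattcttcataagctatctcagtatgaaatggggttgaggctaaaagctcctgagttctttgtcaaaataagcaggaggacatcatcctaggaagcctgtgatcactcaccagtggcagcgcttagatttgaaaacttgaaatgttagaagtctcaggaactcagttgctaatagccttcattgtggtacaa
Sema3e, chr5:14025026-14025275: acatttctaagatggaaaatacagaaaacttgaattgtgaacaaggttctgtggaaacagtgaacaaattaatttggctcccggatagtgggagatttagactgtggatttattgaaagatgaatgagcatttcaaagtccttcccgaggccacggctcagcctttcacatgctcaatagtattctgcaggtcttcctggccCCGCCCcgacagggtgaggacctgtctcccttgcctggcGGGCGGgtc
The Sema3e window holds 2 GC boxes, one on each strand, and 7 CpG dinucleotides. The windows of Sema3d and Sema3a hold no GC box and 4 and 2 CpG. A GC box is found in 32.7% of the 32851 RefSeq windows of 250 bases, whose median is 6 CpG. The Sema3a window lies inside the gene as GENCODE draws it (chr5:13125414-13602565), since GENCODE also lists transcripts that start farther upstream. Transcript starts were not measured here, so which window was in use in which class is not known.

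Sema3e, which acts through Plxnd1 and repels axons and vessels, was a ligand of pyramidal cells. Its level was 4.64 in wild-type and 5.37 in Pigv341E CA1 pyramidal-like cells, and 4.29 and 4.42 in CA3 pyramidal-like cells. Its level in dentate granule neuron-like cells was 0.192 and 0.286. The 2 pyramidal classes thus stood above the granule cells in each library, and no other class reached 2.5. Sema3e was above 0 in 93.5% and 97.5% of CA1 pyramidal-like cells against 13.3% and 18.3% of granule neuron-like cells. Median totals in these classes were 9941 and 9965 against 9943 and 10019. These are totals after the depth correction, so they do not show that the raw depth was equal. Plxnd1, its receptor, was low in all 13 classes and highest in Cajal-Retzius cell-like cells, at 0.506 and 0.277.

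Sema3a, the prototype repellent of axons, was highest in fibroblast-like cells, at 2.98 in the wild-type and 3.101 in the Pigv341E library. Interneuron-like cells followed at 0.724 and 0.510, and astrocyte-like cells were at 0.0285 and 0.0475. Over all cells Sema3a was at 0.176 and 0.280, a log2 ratio of 0.46 (Pigv341E over wild-type, each level plus 0.1), while within fibroblast-like cells the log2 ratio was 0.06. Fibroblast-like cells made up 1.87% of wild-type and 3.79% of Pigv341E cells, and with each cluster given the same weight in both libraries the log2 ratio over all cells was 0.04. An unnamed cluster led by Unc5d and Efna5 also differed in size, with 123 wild-type and 468 Pigv341E cells. Its main group at a finer clustering (118 and 361 cells) held Sema3a at 0.425 and 0.822. The part of single clusters in the ratio over all cells was not tested.

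Sema3d, a class 3 ligand that binds neuropilins, was found in oligodendrocyte precursor-like cells at 2.33 and 2.26 and in fibroblast-like cells at 1.37 and 1.65. Mature oligodendrocyte-like cells were at 0.183 and 0.155, so the level was much lower at the later stage of that lineage in both libraries. Sema3c, which can attract as well as repel axons, was highest in immature neuron-like cells at 1.27 and 2.21, with interneuron-like cells next at 0.771 and 0.460. Sema3b was at 0.989 and 1.06 in choroid plexus epithelium-like cells and below 0.1 in each of the other 12 classes. It was above 0 in 37.1% of wild-type (95% Clopper-Pearson interval 25.2 to 50.3) and 45.7% of Pigv341E choroid cells (33.7 to 58.1), against 0.153% and 0.171% of granule neuron-like cells. Their median totals after the depth correction were 7656 and 10176 in the choroid class and 9943 and 10019 in the granule class. These intervals cover the counting of cells only. Sema3f, known for repelling axons that carry Nrp2, and Sema3g stayed under 0.2 in every class of both libraries.

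**Figure D1:**
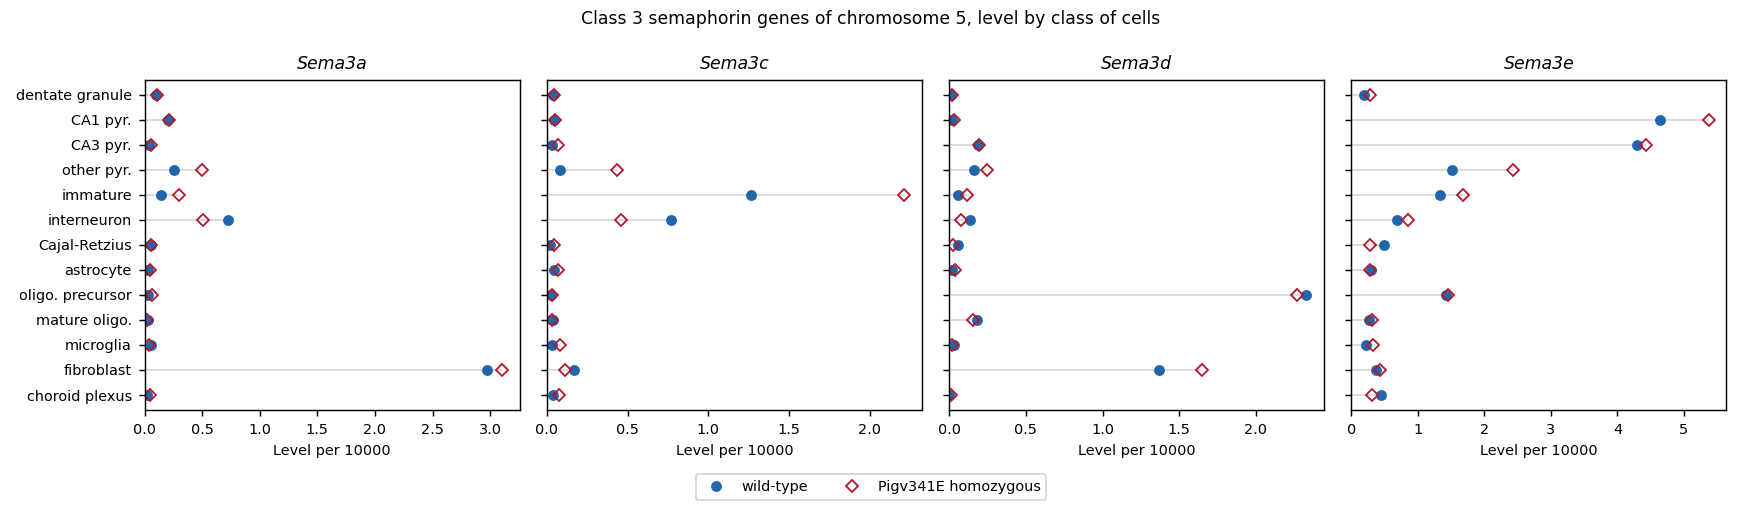
Level per 10000 values (x axis) of 4 class 3 semaphorin genes of chromosome 5 in 13 classes of cells (y axis), with filled circles for the wild-type and open diamonds for the Pigv341E library. Sema3a peaks in fibroblast-like, Sema3c in immature neuron-like, Sema3d in oligodendrocyte precursor-like and Sema3e in CA1 pyramidal-like cells in both libraries.

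Among the membrane-bound ligands, Sema4d, which acts through B-type plexins and is known from immune cells and myelinating glia, was highest in microglia-like cells at 2.26 and 2.13. Mature oligodendrocyte-like cells were close behind at 1.96 and 2.07, and fibroblast-like cells were lowest at 0.268 and 0.241. Both glial classes therefore stood above the rest, and their order as whole classes was the same in the 2 libraries. The order did not hold in every cluster. The microglia-like cluster led by Cst3 and Tyrobp held Sema4d at 1.67 and 0.816. Those led by Inpp5d and P2ry12 held it at 2.44 and 2.48 and at 2.45 and 2.17. The mature oligodendrocyte-like clusters were at 2.06 and 2.11 and at 1.76 and 1.97. Sema4b was highest in astrocyte-like cells at 0.940 and 0.986. Sema4a had its highest level in other pyramidal-like cells (pyramidal clusters named neither CA1 nor CA3) at 0.506 and 0.536, and Sema4g in interneuron-like cells at 0.494 and 0.520. Sema4f was highest in granule neuron-like cells of the wild-type (0.420) and immature neuron-like cells of the Pigv341E library (0.436), and Sema4c stayed under 0.2 throughout.

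Sema5a and Sema5b carry thrombospondin repeats beside the sema domain. Sema5a, known to limit synapse formation on granule neurons, was at 8.02 in wild-type and 7.06 in Pigv341E granule neuron-like cells, where 99.2% and 99.0% of cells were above 0. Immature neuron-like cells were at 5.55 and 6.99 and oligodendrocyte precursor-like cells at 4.12 and 4.07. CA1 pyramidal-like cells were at 0.0815 and 0.0926, the lowest of the 13 classes in each library, so that Sema5a and Sema3e divided granule from CA1 cells in opposite directions. Sema5b was highest in oligodendrocyte precursor-like cells at 5.25 and 4.98. An unnamed cluster of 85 wild-type and 102 Pigv341E cells, led by Vwc2l, Cntn6 and Sntb1, was higher still in Sema5b, at 7.31 and 6.97, with 96.5% and 90.2% of its cells above 0.

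Class 6 ligands signal through A-type plexins, and of the 4, Sema6d and Sema6a had their highest class in glia. Sema6d was at 10.5 and 9.43 in oligodendrocyte precursor-like cells and 5.82 and 5.41 in astrocyte-like cells. Mature oligodendrocyte-like cells were at 3.60 and 3.82, and CA1 pyramidal-like cells were lowest at 0.533 and 0.486. Sema6a followed the reverse order within the oligodendrocyte lineage, with 5.42 and 4.74 in mature oligodendrocyte-like cells and 2.50 and 2.45 in precursor-like cells. Cajal-Retzius cell-like cells were next, at 2.68 and 3.45, and interneuron-like cells at 2.45 and 2.25. Sema6b and Sema6c stayed under 0.5 in every class, Sema6c being highest in interneuron-like cells at 0.494 and 0.437.

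Sema7a is the only GPI-anchored protein of the family, and its anchor is built by the pathway in which Pigv works. Its transcript was at 0.268 over all wild-type and 0.230 over all Pigv341E cells, a log2 ratio of -0.16. It was highest in other pyramidal-like cells at 0.478 and 0.414, with granule neuron-like cells at 0.450 and 0.360 and CA1 pyramidal-like cells at 0.389 and 0.4001. Sema7a was lower in the Pigv341E library in 6 of the 13 classes and higher in 7, so no direction ran through the classes. Transcript levels say nothing about the anchored protein, which was not measured. Endothelial cell-like cells, of which there were 25 and 43, held Sema7a at 2.39 and 1.95, above each of the 13 larger classes. In the same few cells Sema6a was at 7.56 and 4.93 and Sema3c at 2.61 and 3.09.

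**Figure D2:**
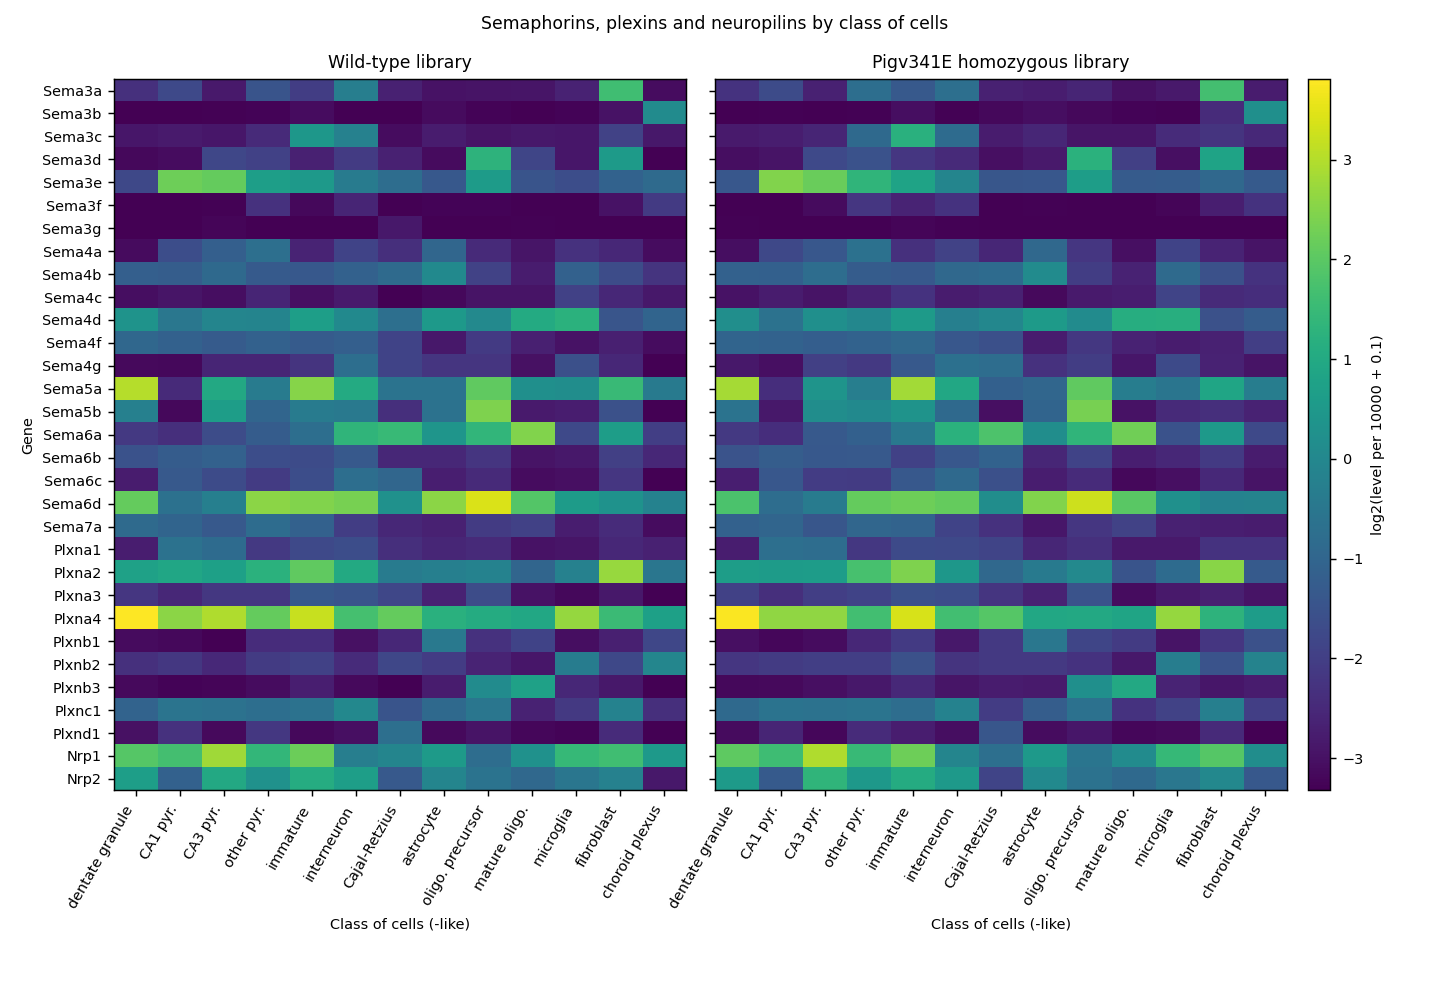
Levels of the 31 genes (rows) in 13 classes of cells (columns), coloured by log2 of the level per 10000 with 0.1 added, for the wild-type (left) and Pigv341E library (right). Both panels show the same bright cells, such as Plxna4 in dentate granule, Sema6d in oligodendrocyte precursor and Sema3e in CA1 and CA3 pyramidal columns.

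Among the receptors, the number of classes with a level of 1 or more differed widely. Plxna4, which joins neuropilins in the class 3 receptor and also binds class 6 ligands, was at 1 or more in all 13 classes of both libraries. It was highest in granule neuron-like cells at 13.7 and 13.5, with immature neuron-like cells at 9.19 and 10.4 and microglia-like cells at 6.34 and 6.35. Its lowest class was choroid plexus epithelium-like, at 1.55 and 1.43. In the larger mature oligodendrocyte-like cluster, Plxna4 levels of 2.03 and 1.70 went with 95.6% and 92.4% of cells above 0. Because values of 1 may not each stand for a molecule, the lower levels do not establish the transcript in every class. Plxna2, a receptor of Sema6a known from mossy fibre layering, was highest in fibroblast-like cells at 6.41 and 5.66, then in immature neuron-like cells at 4.07 and 5.31. Plxna1 was highest in CA1 pyramidal-like cells at 0.543 and 0.505, and Plxna3 stayed under 0.3 in every class.

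Each B-type plexin, the receptors of class 4 ligands, was highest in a class other than neurons. Plxnb3 was at 1.60 and 1.86 in mature and 0.994 and 1.07 in precursor-like oligodendrocytes and under 0.1 in the other 11 classes. Plxnb1 was highest in astrocyte-like cells at 0.633 and 0.608. Plxnb2 was at 0.858 and 0.805 in choroid plexus epithelium-like and 0.698 and 0.717 in microglia-like cells. Sema4d, a ligand of the B-type group, had mature oligodendrocyte-like cells as its second class, but binding between it and Plxnb3 was not tested. In the larger cluster of that class Plxnb1 was at 0.177 and 0.131 and Plxnb2 at 0.0368 and 0.0389. Plxnc1, the plexin that binds Sema7a, was highest in interneuron-like cells at 0.903 and 0.794.

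Nrp1, the neuropilin bound by Sema3a, was highest in CA3 pyramidal-like cells at 6.86 and 7.67, with immature neuron-like cells next at 4.48 and 4.63. Interneuron-like cells were at 0.733 and 0.852, and oligodendrocyte precursor-like cells at 0.489 and 0.586. Nrp2, bound by Sema3f, was at 1.86 and 2.43 in CA3 pyramidal-like and 2.02 and 1.99 in immature neuron-like cells. In interneuron-like cells Nrp2 was at 1.495 and 1.31, and in CA1 pyramidal-like cells at 0.360 and 0.309. CA1 and interneuron-like cells thus lay in opposite order for the 2 neuropilins, in both libraries. In endothelial cell-like cells Nrp1 was at 4.30 and 3.09.

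**Figure D3:**
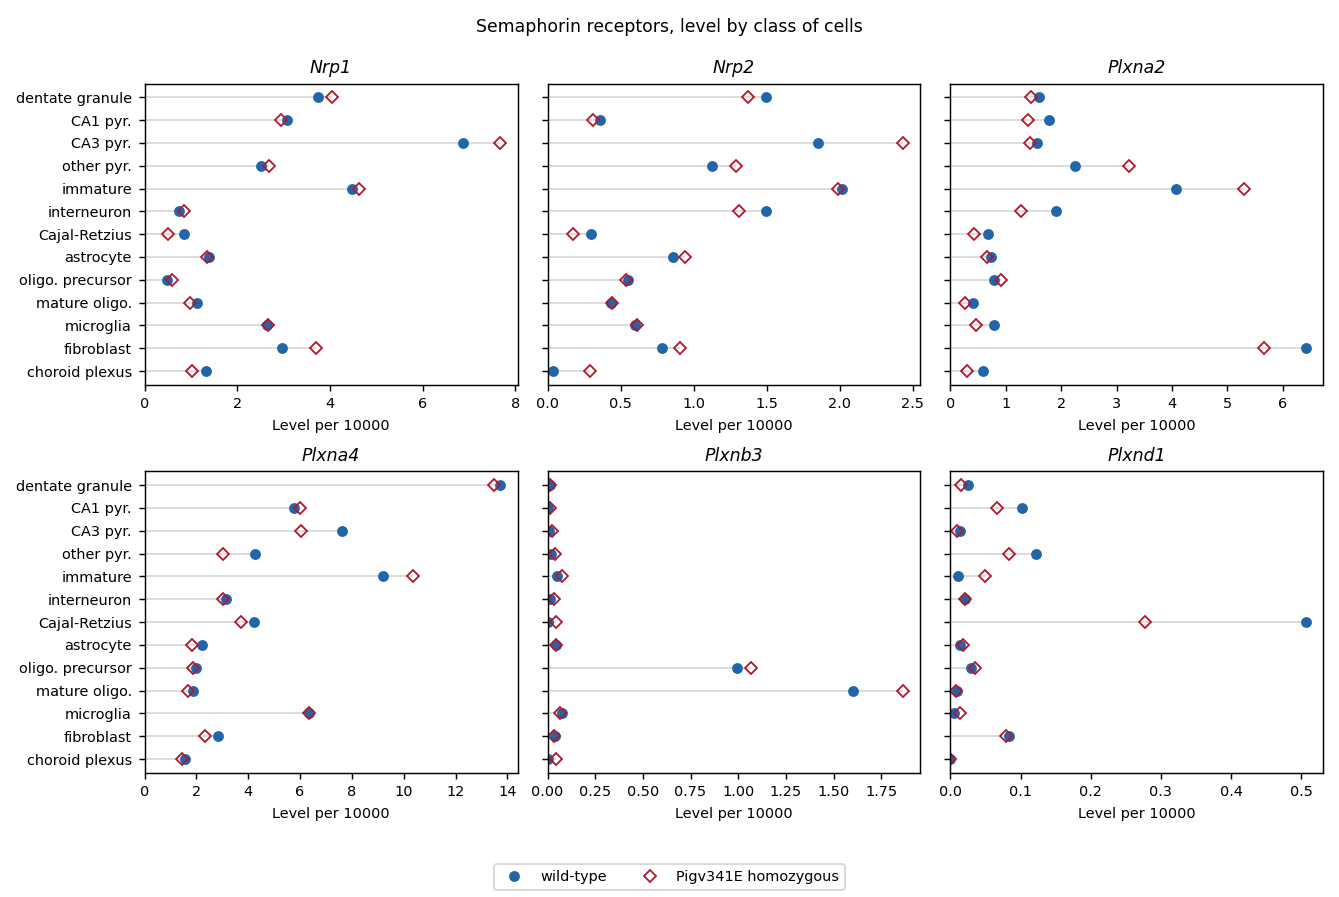
Level per 10000 values (x axis) of 6 receptor genes in 13 classes of cells (y axis), filled circles for the wild-type and open diamonds for the Pigv341E library. Plxna4 has a level of 1 or more in each of the 13 classes, Plxnb3 is under 0.1 outside the 2 oligodendrocyte classes, and Nrp1 is highest in CA3 pyramidal-like cells.

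Most of these genes had the same highest class in both libraries. The classes were formed from the 2 libraries together, and the share over all genes was not computed. Whether the agreement is particular to these genes is therefore not known. Of the 28 genes that reached 0.2 in at least 1 class, 24 had their highest class in common. The exceptions were Sema4f, Sema6b, Plxna3 and Nrp2. For Sema4f, Plxna3 and Nrp2 the leading class of the wild-type library was the second of the Pigv341E library. Sema6b led in CA3 pyramidal-like cells of the wild-type library (0.366) and in Cajal-Retzius cell-like cells of the Pigv341E library (0.370), the latter a class of 63 and 101 cells. Pearson's r between the 2 libraries over the 13 classes ran from 0.74 to 0.99, with a median of 0.97, as a description of classes that share a library. Across the 31 genes, the genomic span of the gene, introns included, was set against its level over all cells. Spearman's rho was 0.71 in the wild-type and 0.75 in the Pigv341E library, across genes that are not independent replicates.

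Within classes, several genes separated clusters of one class that had been formed without them. In astrocyte-like cells a cluster led by Myoc and Gfap held Nrp2 at 3.46 and 3.96, against 0.527 and 0.529 in the larger astrocyte cluster. Sema6d was at 11.6 and 8.15 in the Myoc and Gfap cluster and at 5.10 and 5.04 in the larger one. The smaller cluster, of 67 wild-type and 98 Pigv341E cells, thus stood above the larger one in Nrp2 and Sema6d in each library.

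Interneuron-like cells held 2 clusters. One, led by 6330411D24Rik, Lef1 and Otx2os1, had Sema3a at 1.75 and 0.731 and Sema3c at 0.125 and 0.181. The other, led by Kcnmb2 and Dlx6os1, had Sema3a at 0.194 and 0.319 and Sema3c at 1.104 and 0.6997. The 2 ligands lay in opposite order in these clusters, in each library. The second cluster had all 12 interneuron markers, and the first had 8, without Dlx1, Dlx6os1, Erbb4 and Lhx6. The name of the first cluster is therefore less certain, and its Sema3a raised the level of the whole class. Sema3a in the first cluster was also lower in the Pigv341E library, with a log2 ratio of -1.16 (-0.87 with 0.5 added to the levels) over 81 and 224 cells, of which 28.4% and 20.5% were above 0. At a finer clustering 80 and 222 of these cells stayed together, and Sema3a was at 1.77 and 0.702 in them.

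Other pyramidal-like cells were split by both a class 3 and a class 6 ligand: Sema3e was at 0.0732 and 0.133 in one cluster and 3.02 and 3.27 in the other, while Sema6d was at 9.04 and 8.34 in the first and 2.36 and 2.77 in the second. The first cluster held 110 wild-type and 82 Pigv341E cells, and the second held 105 and 225. In this class Sema3e as a whole was at 1.51 and 2.43, a log2 ratio of 0.65, while the log2 ratio was 0.11 within the second cluster.

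Fibroblast-like cells also divided. The cluster led by Slc47a1 and Bnc2 held Sema3d at 3.29 and 2.96 and Nrp1 at 5.26 and 8.22, and the cluster led by Bmp6 and Slc6a20a held them at 0.938 and 1.18 and at 2.44 and 2.10. Plxna2 lay the other way, at 3.99 and 3.36 in the first and 6.95 and 6.48 in the second. The first cluster had only 24 wild-type cells.

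**Figure D4:**
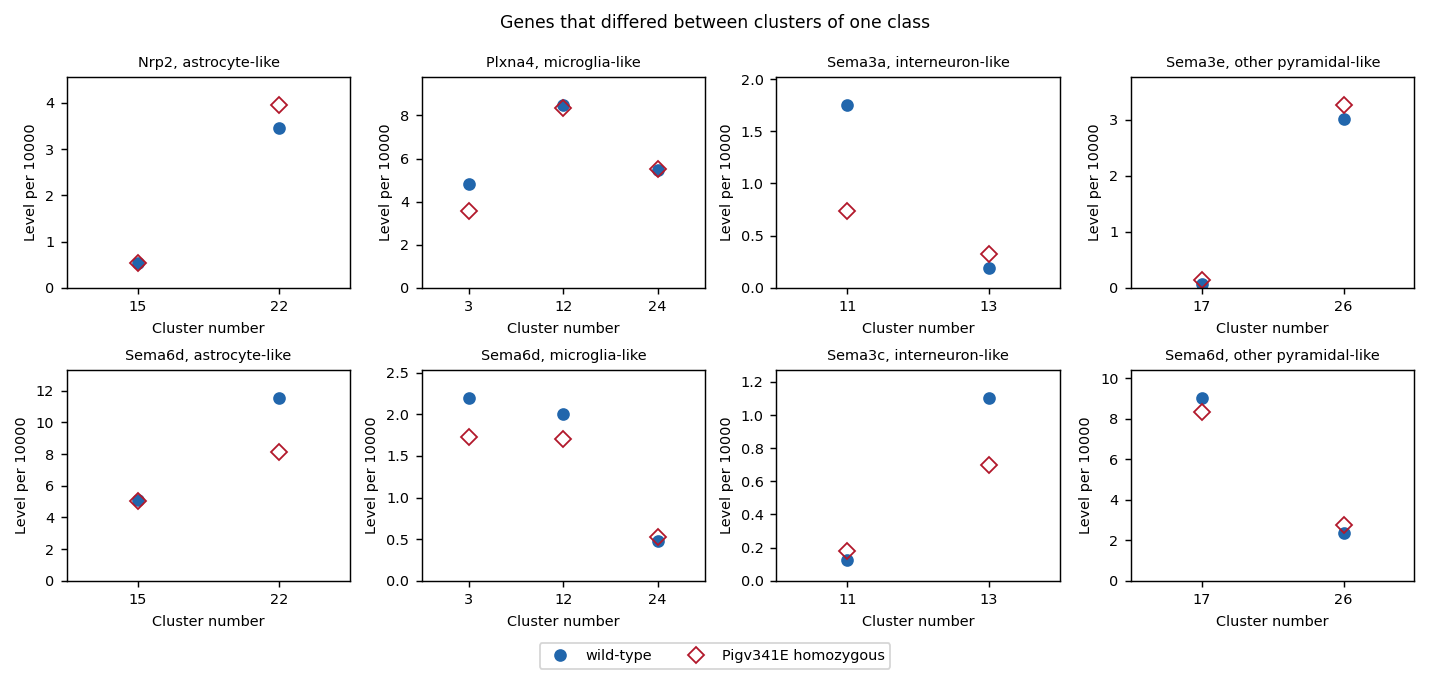
Level per 10000 values (y axis) of 6 genes, 8 gene and class pairs in all, in the clusters of 4 classes (x axis, cluster number), filled circles for the wild-type and open diamonds for the Pigv341E library. Nrp2 is above 3 in astrocyte-like cluster 22 and below 1 in cluster 15, and Sema3e is above 3 in other pyramidal-like cluster 26 and below 1 in cluster 17, in both libraries.

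The comparison of genotypes asked which of these genes differed between Pigv341E and wild-type cells. A gene was counted as different by size when its log2 ratio was 1 or more in either direction and its level was at least 1, with at least 10% of cells above 0, in 1 of the libraries. Over all cells 0 of the 8 members that met the limits on level passed, beside 0.289% of the 2075 genes of the table that met them. Within the 13 classes 0 of 80 gene and class pairs passed, beside 0.872% of 26495 pairs over all genes. Of the 80 pairs, 31 were higher and 49 lower in the Pigv341E library. The median log2 ratio over all genes that met the limits was also below 0 in each of the 13 classes. It ran from -0.10 in microglia-like to -0.02 in choroid plexus epithelium-like cells. Higher and lower pairs were not counted over all genes. At a log2 ratio of 0.5 or more 8 of the 80 pairs passed, beside 6.3% of all pairs. Within the clusters of divided classes, counted after their values had been seen, 1 of 76 gene and cluster pairs passed the size rule, beside 1.81% of all pairs, or 0.871% without the microglia-like cluster led by Cst3 and Tyrobp, where 10.9% of genes passed. That pair was Sema3a in the interneuron-like cluster led by 6330411D24Rik, where 1.21% of the 2230 genes that met the limits passed.

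Over all cells the median log2 ratio of those 8 members was -0.14, beside -0.08 for all genes that met the limits, with a range from -0.38 for Sema5a to 0.12 for Sema3e. Plxna4 was at 6.23 and 5.46, Sema6d at 3.57 and 3.08, Nrp1 at 2.69 and 2.58, Sema6a at 1.5001 and 1.29, Plxna2 at 1.43 and 1.40 and Sema4d at 1.29 and 1.20. Every one of these 6 was lower in the Pigv341E library, by less than 0.25 on the log2 scale.

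**Figure D5:**
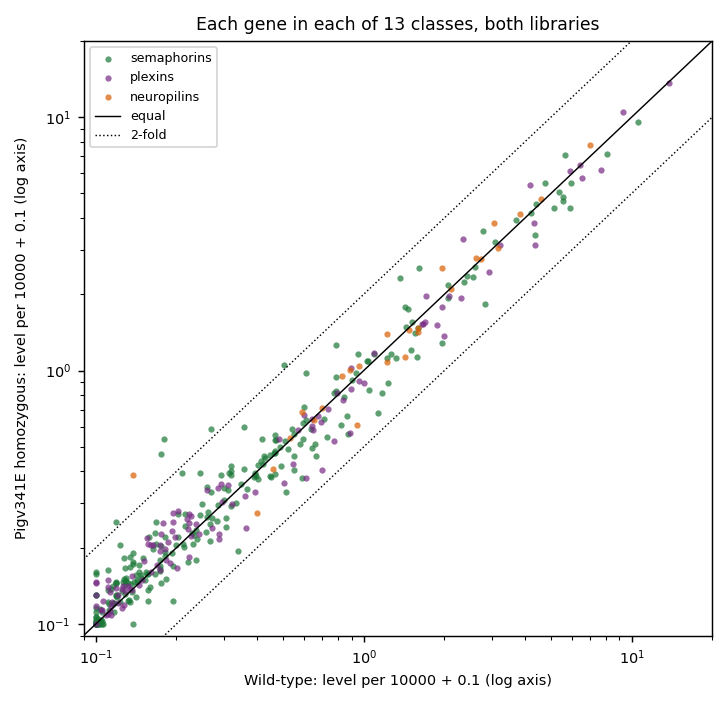
Each of the 31 genes in each of 13 classes, with its level per 10000 plus 0.1 in the wild-type (x axis) and Pigv341E library (y axis), both on log axes, coloured by semaphorin, plexin or neuropilin. Solid and dotted lines mark equal levels and a 2-fold difference, and the points outside the dotted lines have levels under 1 in both libraries.

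Sema5a accounted for 4 of the 8 larger pairs. Its level was 1.03 in wild-type and 0.581 in Pigv341E microglia-like cells (log2 ratio -0.73). In the microglia-like cluster led by Cst3 and Tyrobp (177 and 116 cells) Sema5a was at 2.14 and 1.21, with 94.4% and 62.1% of cells above 0. It was at 1.16 and 0.684 in that led by Inpp5d (241 and 347), with 41.1% and 18.7%. In that led by P2ry12 (256 and 398) it was at 0.322 and 0.363, with 14.1% and 13.1%. In the first of these clusters 10.9% of all genes that met the limits passed the size rule. The part of the depth correction in the Sema5a values was not tested. Sema5a was at 2.73 and 1.74 in fibroblast-like cells (-0.63), at 1.86 and 1.19 in CA3 pyramidal-like cells (-0.60) and at 1.07 and 0.713 in mature oligodendrocyte-like cells (-0.52). In granule neuron-like cells, the class of its highest level, the log2 ratio was -0.18, and in oligodendrocyte precursor-like cells it was -0.02. Over the 8 classes in which Sema5a met the limits it was lower in the Pigv341E library in 7, all but immature neuron-like cells. That class held unlike cells, as described below. At a finer clustering Sema5a was at 11.7 and 11.4 in a group of 66 wild-type and 94 Pigv341E of its cells. In an unnamed group of 126 and 74 of its cells Sema5a was at 2.30 and 1.67, so it was lower in the Pigv341E library in each group. The median log2 ratio over all genes that met the limits was below 0 in every class. Granule neuron-like cells made up 18.4% of wild-type and 13.2% of Pigv341E cells. The 10 granule neuron markers, summed, were at 48.2 and 44.4 in mature oligodendrocyte-like cells against 65.8 and 71.7 in granule neuron-like cells themselves, so this list cannot gauge granule cell RNA in the mature oligodendrocyte-like class. The sum was 22.5 and 20.9 in microglia-like, 17.1 and 15.9 in fibroblast-like and 3.37 and 4.14 in CA3 pyramidal-like cells. Among all genes that met the limits, 3.13% reached a log2 ratio of 0.5 in microglia-like, 6.83% in fibroblast-like, 4.39% in CA3 pyramidal-like and 2.19% in mature oligodendrocyte-like cells. The part of granule cell RNA in the Sema5a values was not tested.

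The other 4 pairs were Plxna2 in interneuron-like cells (1.90 and 1.27, log2 ratio -0.54, against -0.26 and -0.49 within its 2 clusters), Sema3e in other pyramidal-like cells, and Sema3c and Sema5b in immature neuron-like cells. Of all genes that met the limits, 3.25% reached this size in interneuron-like, 12.2% in other pyramidal-like and 13.9% in immature neuron-like cells. The immature class held unlike cells. At a finer clustering its cluster divided into an immature neuron-like group of 66 wild-type and 94 Pigv341E cells, with Igfbpl1, a marker of newborn neurons, at 4.65 and 5.50, and an unnamed group of 126 and 74 cells, with Igfbpl1 at 0.00957 and 0.141. Sema3c was at 3.88 and 3.93 in the first group and 0.0383 and 0.141 in the second, while the class as a whole had 1.27 and 2.21 (log2 ratio 0.76). In the first group Plxna2 was at 8.62 and 8.20, Sema5a at 11.7 and 11.4 and Plxna4 at 13.4 and 13.5. In the same group Nrp2 was at 4.84 and 2.96 and Sema6d at 9.86 and 6.43. The first 4 genes thus lay close together in the 2 libraries in these cells, and Nrp2 and Sema6d were lower in the Pigv341E library. Plxna2, Sema5a and Nrp2 were higher in this group than in the highest of the 13 classes, in each library. Their rankings over the classes therefore depend on how the immature class is divided. Sema5b in the immature class was at 0.685 and 1.16 (log2 ratio 0.68), and the ratio in the immature neuron-like cells of the finer clustering was 0.22.

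Of the 7 unnamed clusters with at least 50 cells in each library, 1 held members past the size rule, 2 of the 5 that met the limits there. A share over all genes of the 7 clusters together was not computed. This cluster of 123 wild-type and 468 Pigv341E cells was led by Unc5d and Efna5. Sema6d was at 5.96 and 2.52 there (log2 ratio -1.21, 91.9% and 62.6% of cells above 0). Nrp1 was at 1.74 and 0.795 (log2 ratio -1.04, 66.7% and 35.5% of cells), and its log2 ratio was -0.79 with 0.5 added to the levels and -0.97 when centred on the median of all genes, both short of the rule. In the same cluster 3.33% of the 2041 genes that met the limits passed the rule, 1.52% of them lower in the Pigv341E library. The sum of the 8 subiculum markers was 32.5 and 13.3 in its 2 libraries, nearly all from Tshz2, and that of the 8 cortex markers was 11.2 and 21.2. At the finer clustering the main group of these cells (118 and 361) held Sema6d at 6.12 and 2.80 and Nrp1 at 1.78 and 0.902. Another group, of 5 wild-type and 107 Pigv341E cells, held Sema6d at 2.20 and 1.57 and Nrp1 at 0.801 and 0.434. The part of a differing mix of neurons in these values was not tested.

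Downstream and partner genes were counted in the same way. Of 49 listed genes of semaphorin signalling other than ligands, plexins and neuropilins, 48 were in the table, and over all cells 16 met the limits and 0 passed the size rule. In the 13 classes 0 of 176 pairs passed and 5 reached a log2 ratio of 0.5, beside 0.872% and 6.3% of all 26495 pairs. Genes with high levels over all cells in both libraries were Nrcam, an adhesion molecule in the Nrp2 receptor complex (5.33 and 4.92), Mical2, an oxidoreductase that acts on actin (5.32 and 5.08), Dpysl2, which encodes the microtubule-binding mediator CRMP2 of Sema3a signalling (4.08 and 3.68), and Farp1, an exchange factor that acts with A-type plexins (3.86 and 4.48). In an unnamed cluster led by Gm42705 and Fn1, of 144 wild-type and 197 Pigv341E cells, Pak1, a kinase downstream of Rac, was at 2.26 and 1.08 (log2 ratio -1.01, and -0.81 with 0.5 added), where 1.21% of the genes that met the limits passed.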

How the data were processed

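Single-cell RNA was measured in 1 library per genotype, each pooled from 4 mice. The authors deposited 1 table of whole-number values per gene and cell, treated here as a score and not as counts, because the totals per cell lie in a narrow band (4846 to 14501) and the table is named as depth-corrected. Seurat 3.0.0 and the build GRCm38 are given per the submitters' processing notes, and the aligner, the cell filter and any doublet removal are not given in the sources used here. No count model was used.

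All cells were kept. With scanpy 1.11.5, cells were scaled to 10000 and log-transformed, and 2000 variable genes without sex-linked genes and without the 31 genes (5 of which were among the variable ones) gave 30 principal components, 15 neighbours and, at Leiden resolution 1, 36 clusters with no batch correction. A cluster was named from at least 3 markers present in 25% of its cells at 1.5-fold or more, unless mitochondrial genes or another class's markers led it. The naming rule was revised after the clusters had been seen. Of the clusters 23 were named and 13 were not, and differences from the study's own cell types may come from these rebuilt names. Scrublet called 61 wild-type (0.860%) and 209 Pigv341E cells (2.37%) as doublets, which were kept in the main values.

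Levels and log2 ratios are as defined with the results, with 0.1 added per 10000. The code for ratios was tested on simulated data. Members with a level of 0.5 over all cells or 1 in a class are given with values, and the others by their highest class. The genes, lists and tests were chosen with earlier results of these data known. Gene positions are from GENCODE M21, and promoter windows from RefSeq, which matched 26 of the 31 genes. Alternatives changed the added constant, the level limit, centring, cell filters, doublets, values of 1, the denominator, the clustering and the weights.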

Additional observations from a re-analysis of the deposited data

How the results depend on the processing

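No member passed the size rule over all cells in any of the settings run. Within classes the count of pairs was 0 in the main setting and 5 when the lowest level allowed was 0.2: Sema6b and Sema4g in Cajal-Retzius cell-like, Nrp2 in choroid plexus epithelium-like, and Sema3c and Sema5b in other pyramidal-like cells. It was 1, Sema5b in other pyramidal-like cells (0.403 and 0.950 in the main setting, log2 ratio 1.06), with values of 1 set to 0 and likewise with mitochondrial, ribosomal and the 10 most abundant genes left out of the denominator. The share over all genes was not computed in these settings, so whether these counts are particular to the members is not known. The 24 genes with the same highest class in both libraries became 23 with the cell filter or 15 principal components and 25 with values of 1 set to 0 or with the members kept in the clustering. Of 899 recomputed log2 ratios of the 15 genes given with values, 24 moved by more than 0.25 and 34 changed sign; none of these ratios was past the size rule. Of the 4 ratios past it in single clusters, recomputed in settings chosen after seeing the data, Sema6d stayed past it in all 8 that keep the clustering, Nrp1 (-0.79), Sema3a (-0.87) and Pak1 (-0.81) fell short with 0.5 added, and Nrp1 (-0.97) and Pak1 (-0.98) also when centred. Sema3c in immature neuron-like cells moved farthest, from 0.76 to 0.01 with the members kept in the clustering and to 0.02 at resolution 2. With 15 principal components no other pyramidal-like class was formed. No paired analysis was possible because each genotype is 1 library. With the raw depth unknown, levels near 0 limit what can be seen of Sema3f, Sema3g and Sema4c.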
